A study of Mus musculus with 6 samples.

Results

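The phagocyte NADPH oxidase was examined through 7 genes, picked by symbol from the 23337 genes of the deposited count table: Cybb, Cyba, Ncf1, Ncf4, Rac1, Rac2 and the proton channel gene Hvcn1. All 7 were found and passed the filter on low counts, Cybb only through the drug-treated group. The cells were granulocyte-monocyte progenitors from bone marrow of the C57BL6 mouse strain that carried ER-HOXA9, a fusion of an estrogen receptor with the homeobox factor HOXA9 that keeps such progenitors immature while estradiol is present. All 3 groups shared a medium with 10% serum, 4 mM glutamine, stem cell factor and 0.5 µM beta-estradiol, so the fusion was kept active in every group. The drug-treated cells had 3 days with a mix of 200 nM GSK-LSD1, 5 µM mercaptopurine and 5 µM cerulenin. GSK-LSD1 blocks LSD1, which removes methyl groups from histones, mercaptopurine interferes with purine synthesis, and cerulenin blocks fatty acid synthase. The vehicle cells had 3 days with the solvent DMSO, and the untreated cells were taken at day 0 with no agent. Each group had 2 biological replicates, which the labels do not tie to separate animals or clones, so p-values measure the spread between these cultures. The 3 drugs were given only together, so their single effects cannot be told apart.

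The oxidase passes electrons from NADPH across a membrane to oxygen and so makes superoxide. Its catalytic core is a membrane heterodimer of gp91phox (Cybb), which carries the flavin and haems, and p22phox (Cyba), which stabilises it. In resting phagocytes the organiser p47phox (Ncf1) and p40phox (Ncf4) wait in the cytosol, and they join the core together with a GTP-bound Rac protein when a receptor is engaged. The voltage-gated proton channel HV1 (Hvcn1) carries the protons that balance the exported electron charge. Assembly of this burst is a late acquisition of the neutrophil and monocyte lineages, and loss of Cybb, Cyba or a cytosolic subunit causes chronic granulomatous disease in humans.

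Total counts per library ranged from 11305666 to 16948697, and 11283 genes passed the filter on low counts. Levels are given as CPM, counts scaled to a common library size by the trimmed mean of M values (TMM). The ribosomal RNA gene Rn45s took 14.6 to 16.1% of counts in the day 3 libraries of both kinds and 20.4 and 24.6% at day 0. Progenitor genes were abundant in all 6 libraries: 7 progenitor markers summed to 11390 and 11972 CPM with drugs, 9318 and 9608 CPM with vehicle and 8325 and 8663 CPM at day 0, with Kit, Cd34 and Mpo abundant under every condition. Mpo was the largest part of each sum (6517 and 6954 CPM with drugs, 4647 and 4646 CPM with vehicle). Ctsg had 707 and 770 CPM with drugs and 889 and 1022 CPM with vehicle. With drugs against vehicle, 2 of the 7 were higher and 1 lower at an adjusted p under 0.05 in edgeR (18.1% and 13.8% of all tested genes). Some markers that define other cells had no count in any library: the T cell genes Cd3d, Cd3e and Cd3g, the neutrophil granule gene Camp and the macrophage genes C1qa and C1qc. Other monocyte and neutrophil markers were expressed and are given with the results.

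The promoter of Cybb is shown because Cybb had the largest fitted log2 change of the 7 genes, beside those of Cyba and Ncf1, which were not called. RefSeq promoter sequences (GRCm38.p6, the same assembly as mm10) were at hand for these 3 of the 7 genes. Each runs on the minus strand from 250 bases before to 30 bases after the annotated start, at chrX:9469295-9469574 for Cybb, chr8:122432911-122433190 for Cyba and chr5:134229596-134229875 for Ncf1. Both strands were searched. Capitals mark matches to the ETS-IRF composite element, a site of an ETS factor such as PU.1 beside one of an interferon regulatory factor, and to GAGGAA, a purine-rich PU.1 site.
Cybb: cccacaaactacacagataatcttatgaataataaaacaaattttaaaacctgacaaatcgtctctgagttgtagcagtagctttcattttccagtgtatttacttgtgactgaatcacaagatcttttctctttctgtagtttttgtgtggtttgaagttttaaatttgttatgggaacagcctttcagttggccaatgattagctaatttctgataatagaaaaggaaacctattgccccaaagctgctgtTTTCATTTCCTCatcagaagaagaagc
Cyba: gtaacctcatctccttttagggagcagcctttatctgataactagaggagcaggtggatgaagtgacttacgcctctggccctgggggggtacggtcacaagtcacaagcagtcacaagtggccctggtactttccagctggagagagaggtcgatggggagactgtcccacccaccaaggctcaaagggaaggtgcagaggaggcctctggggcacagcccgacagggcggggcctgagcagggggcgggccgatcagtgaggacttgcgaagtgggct
Ncf1: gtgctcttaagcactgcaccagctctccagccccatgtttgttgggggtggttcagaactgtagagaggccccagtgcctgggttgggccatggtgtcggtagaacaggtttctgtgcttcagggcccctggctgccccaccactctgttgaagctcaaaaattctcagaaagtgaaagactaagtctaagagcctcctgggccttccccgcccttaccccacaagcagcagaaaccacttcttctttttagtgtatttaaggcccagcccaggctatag
In Cybb the composite element lay on the opposite strand, read there as GGAAATGAAA, with its leftmost printed base at position 4 from the start site (the search left the fifth and the sixth letter free), where it overlapped a GAGGAA match that began at position 10. The composite element was found in 2.55% and GAGGAA in 26% of the 32851 promoters of the same length in that collection. CCAAT was found in the Cybb window at position -56 and in 36.1% of all promoters. AATCAC, the core of sites bound by the repressor GFI1, was found there at position -137 and in 9.91% of all promoters. A site of the GATA factor family, with the letters AGATAA, was found in the windows of Cybb and Cyba and in 10.7% of all promoters. Ncf1 had none of these 5 motifs in its window. The motifs were chosen with the sequences in view, and a match of letters is a description, not a bound site.

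With the drugs, Cybb and Hvcn1 were higher than with vehicle, Rac2 was lower, and the other 4 genes were not called. A gene was called at an adjusted p under 0.05 in edgeR's quasi-likelihood test (Benjamini-Hochberg, all tested genes). Of the 7 genes 2 were called higher, against 18.1% of all tested genes, and 1 was called lower, against 13.8%. The 2 higher genes include Cybb, which passed the filter on low counts only through the drug group. In either direction 3 of 7 were called, where 31.9% of all tested genes were, so the share of changed oxidase genes was near the background of this comparison. Drug and vehicle libraries did not overlap for 4 of the 7 (Cybb, Ncf4, Rac2 and Hvcn1), against 68.8% of all tested genes. The median log2 change was -0.035 over the 7 genes and 0.00 over all 11283. In bulk RNA, more cells that express a gene and more RNA per cell cannot be told apart.

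**Figure D1:**
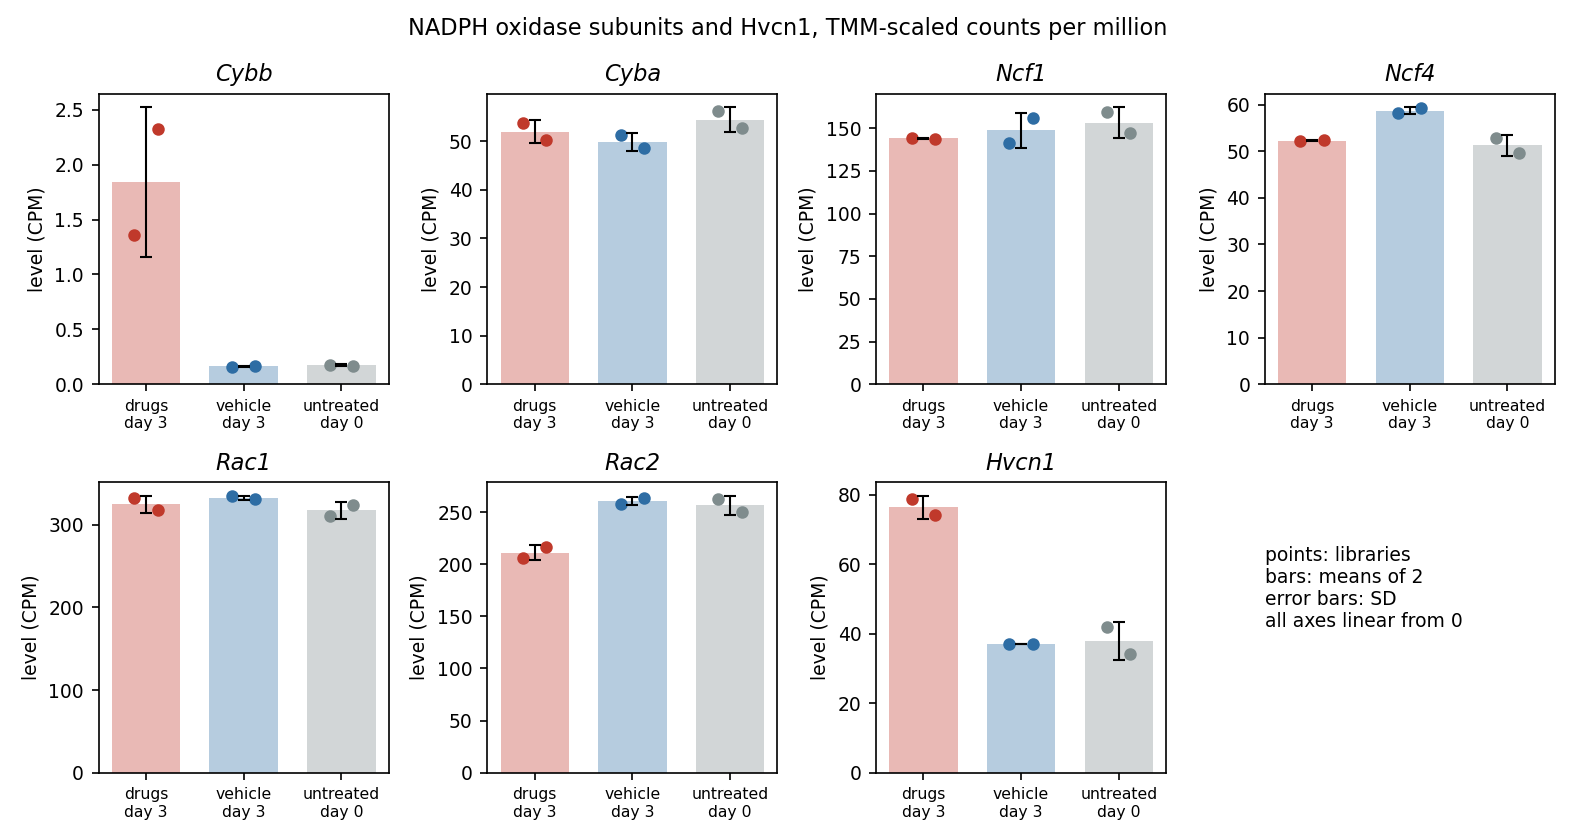
Level of each of the 7 genes in CPM (linear axes from 0) in drug-treated, vehicle and untreated day 0 cultures, with points for libraries, bars for the mean of 2 and error bars for the SD. Cybb and Hvcn1 stand higher with the drugs than in both other groups and Rac2 stands lower, while Cybb stays under 2.5 CPM everywhere.

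The genes of the flavocytochrome core differed: Cybb was close to silent without the drugs, and Cyba was expressed in every group. Cybb (chromosome X, 9435252 to 9469324, minus strand, mm10) had 17 and 36 counts with drugs, 2 and 2 with vehicle, and 3 and 2 at day 0. These are 1.36 and 2.32 CPM with drugs, against 0.158 and 0.167 CPM with vehicle and 0.179 and 0.166 CPM at day 0. Both drug libraries lay above all 4 others, and the exact Poisson 95% intervals of the 2 drug libraries, 0.793 to 2.18 and 1.63 to 3.22 CPM, overlapped each other. The ratio of summed counts, 53 with drugs against 4 with vehicle, was 11.7 after scaling (exact 95% counting interval 4.29 to 44.3, counting error only). The fitted log2 change was 3.46 ± 0.543 (SE; adjusted p = 0.000361), and 75 tested genes had a larger rise. Cybb passed the filter on low counts only through its drug libraries, so it had to differ in order to be tested, and its p is not independent of that filter. Cybb was higher in 2 of 2 drug libraries, and its log2 changes in the 14 alternative analyses were 2.99 to 3.76. Those analyses reuse the same libraries, so they are not independent support.

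Cyba (chromosome 8, 122424771 to 122432940, minus strand), the p22phox partner in the core, had 53.7 and 50.3 CPM with drugs, 51.2 and 48.6 CPM with vehicle and 56.2 and 52.7 CPM at day 0. The drug and vehicle libraries overlapped. Its log2 change between drugs and vehicle was 0.06, with a 95% interval of -0.11 to 0.23 (adjusted p = 0.621 in edgeR), that is at most a 1.17-fold rise within that interval.

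The cytosolic subunit genes Ncf1 and Ncf4 were expressed in every group and were not called in any comparison with TMM scaling. Ncf1 (chromosome 5, 134220260 to 134229625, minus strand), which carries the phosphorylated switch of the complex, had 144.2 and 144.0 CPM with drugs, 141.6 and 156.2 CPM with vehicle and 159.6 and 146.9 CPM at day 0. Its drug libraries lay within the range of the vehicle libraries. The log2 change against vehicle was -0.05 (95% interval -0.21 to 0.11). Of the 50-base words in annotated Ncf1 transcripts, 7.45% also occur in Gtf2ird2 or Zhx3, so a small part of its reads could be split among them.

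Ncf4 (chromosome 15, 78244811 to 78262580, plus strand), whose protein binds phosphatidylinositol 3-phosphate on phagosomes, had 52.2 and 52.3 CPM with drugs, 58.2 and 59.2 CPM with vehicle and 52.8 and 49.7 CPM at day 0. The vehicle libraries were above the other 4. The log2 change of drugs against vehicle was -0.17 (95% interval -0.33 to -0.01), which did not pass the adjusted threshold in edgeR (adjusted p = 0.106) or in any of the 14 alternatives.

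Of the GTPases that complete the oxidase, Rac2 was lower with the drugs and Rac1 was not called. Rac2 (chromosome 15, 78559169 to 78572783, minus strand), the form largely restricted to blood cells, had 205.9 and 216.1 CPM with drugs, 257.8 and 263.3 CPM with vehicle and 262.8 and 249.7 CPM at day 0. Both drug libraries lay below all 4 others. The log2 change against vehicle was -0.30 ± 0.0708 (SE; adjusted p = 0.00575 in edgeR), that is 0.81-fold. The call was lost without drug replicate 1 (log2 change -0.27, adjusted p = 0.118) and was made in the other 13 alternatives.

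Rac1 (chromosome 5, 143505481 to 143527993, minus strand), which is expressed in most tissues, had 331.6 and 317.5 CPM with drugs, 334.1 and 330.8 CPM with vehicle and 310.1 and 324.1 CPM at day 0. The drug and vehicle libraries overlapped, and the log2 change was -0.03 (95% interval -0.19 to 0.12). Per kilobase of exon, the level of Rac2 over that of Rac1 was 0.464 and 0.509 with drugs, against 0.577 and 0.595 with vehicle and 0.633 and 0.576 at day 0. This ratio was lower in both drug libraries than in the other 4. The difference between the changes of Rac2 and Rac1 was not tested. Annotated transcripts of Rac1 and Rac2 had 0 words of 50 bases in common. Of the Rac1 words, however, 50.3% also occur in GENCODE transcripts of its neighbour Daglb. In the deposited coordinates these genes do not overlap and lie 1039 bases apart. Whether any counted reads could belong to both was not tested.

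Hvcn1 (chromosome 5, 122209737 to 122242297, plus strand), the proton channel, was the gene with the smallest p of the 7. It had 78.7 and 74.0 CPM with drugs, 37.15 and 37.12 CPM with vehicle and 41.8 and 34.1 CPM at day 0. Both drug libraries were above all others with no overlap. The log2 change against vehicle was 1.04 ± 0.0945 (SE; adjusted p = 3.12e-06 in edgeR), or 2.05-fold with a 95% interval of 1.78 to 2.37. It was called under all 14 alternatives (log2 changes of 0.99 to 1.08). In the deposited coordinates, 321 of the 2826 exon bases of Hvcn1 are shared with Tctn1 on the opposite strand. In GENCODE, a separate set of transcripts, 39.7% of the 50-base words of Hvcn1 occur in those of Tctn1. Whether strand was used in counting is not stated, so reads of these genes cannot be fully told apart. Tctn1 had 12.5 CPM with drugs, 13.2 CPM with vehicle and 10.3 CPM at day 0 and was not called (log2 change -0.08, adjusted p = 0.662).

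**Figure D2:**
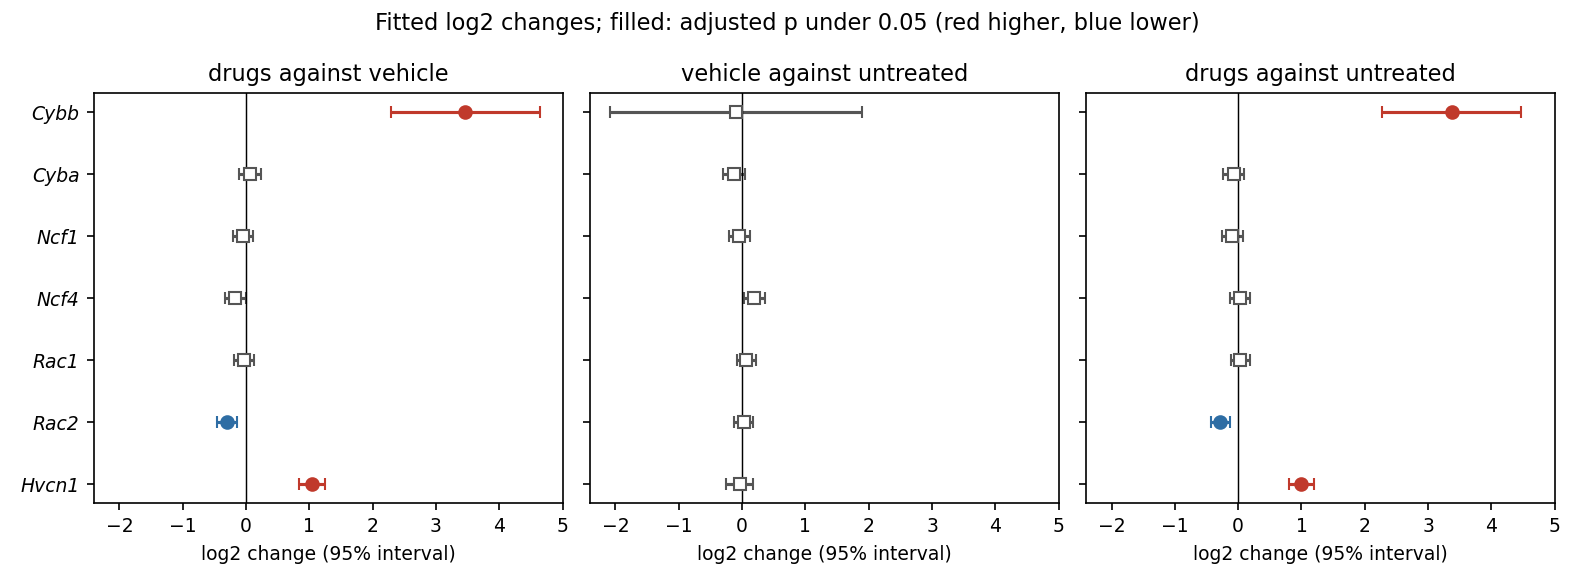
Fitted log2 changes of the 7 genes with 95% intervals for drugs against vehicle, vehicle against untreated and drugs against untreated. Cybb, Hvcn1 and Rac2 (filled) are called in both comparisons with the drugs, and no gene is called between vehicle and untreated cells.

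Markers of other blood cells moved in both directions beside the rises of Cybb and Hvcn1. Beside the marker calls below, 18.1% of all tested genes were called higher and 13.8% lower with drugs against vehicle. All 4 tested genes of 8 monocyte and macrophage markers rose (Adgre1, Cd68, Csf1r and Ly6c2), and the summed level of the list was 128.1 and 132.9 CPM with drugs, 31.1 and 28.2 with vehicle and 38.3 and 33.6 at day 0, with C1qa and C1qc at 0. Csf1r, the receptor of the macrophage growth factor, had 15.3 and 16.3 CPM with drugs, 1.58 and 1.92 with vehicle and 1.38 and 1.33 at day 0. The 7 mature neutrophil markers summed to 6.25 and 6.52 CPM with drugs, 2.37 and 1.5 with vehicle and 0.658 and 0.665 at day 0, with Camp and Retnlg at 0. Most of that sum with drugs was Mmp9 (5.61 and 4.78 CPM with drugs, 0.158 and 0.0836 with vehicle), while S100a8 had 0.481 and 1.29 CPM with drugs and 1.82 and 0.920 with vehicle. Of the 2 tested neutrophil markers 1 was called higher and 0 lower. The called one was Mmp9, which passed the filter on low counts only through the drug group. Hvcn1 is also abundant in B cells. The 7 B cell markers, mostly Ebf1, summed to 49.98 and 48.1 CPM with drugs, against 92.3 and 79.2 with vehicle and 74.7 and 82.3 at day 0. Of the 3 tested ones 1 was called higher and 2 lower, and Ms4a1 had at most 0.0831 CPM in any library. The mast cell and basophil list, mostly Cpa3, summed to 1212 and 1126 CPM with drugs, 496.2 and 479.7 with vehicle and 1089 and 903.2 at day 0, with Fcer1a and Tpsb2 at 0. Of its 3 tested genes 1 was called higher and 1 lower. The eosinophil list, mostly Siglecf, summed to 116.1 and 117.8 CPM with drugs, 142.9 and 157.8 with vehicle and 184.7 and 162.6 at day 0. Again 1 of its 3 tested genes was higher and 1 lower, and its granule gene Prg2 had 13.1 and 11.4 CPM with drugs against 43.7 and 52.3 with vehicle. The megakaryocyte list summed to 17.7 and 13.6 CPM with drugs, 15.5 and 20.3 with vehicle and 43.8 and 32.7 at day 0 (0 higher and 1 lower of 3 tested, drugs against vehicle). The stromal list, mostly Pdgfrb, summed to 39.6 and 36.4 CPM with drugs, 27.4 and 20.99 with vehicle and 34.5 and 30.7 at day 0 (1 higher and 0 lower of 2). The erythroid and the T and NK cell lists summed to at most 1.79 and 0.581 CPM, with no tested gene. The part of such cells in the changes was not tested.

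Against untreated cells, the drug-treated cells showed the same 3 calls. The libraries of the drug group serve in both comparisons, so the values are not independent. The limit that the filter sets on the p of Cybb holds here as well. Cybb (log2 change 3.37 ± 0.51, adjusted p = 0.000201) and Hvcn1 (0.998 ± 0.0928, adjusted p = 2.87e-06) were higher and Rac2 was lower (-0.28 ± 0.0707, adjusted p = 0.00646), all by edgeR with n = 2 per group. That is 3 of 7, against 43.9% of all tested genes, with 2 higher against 22.7% and 1 lower against 21.2%. Libraries did not overlap for 4 of the 7 (Cybb, Ncf1, Rac2 and Hvcn1), against 73.2% of all tested genes. The Rac2 call was lost with scaling by library totals (-0.19, adjusted p = 0.0625) and without drug replicate 1 (-0.25, adjusted p = 0.122). Cyba (-0.07), Ncf1 (-0.09), Ncf4 (0.03) and Rac1 (0.03) had no call.

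Between vehicle and untreated cells, 0 of the 7 genes were called by edgeR, where 7.74% of all tested genes were, 3.75% higher and 3.99% lower. Cybb could hardly have been called here: it did not pass the filter with these 2 groups alone, and DESeq2 gave it no adjusted p, so the count speaks of the other 6 genes. Libraries did not overlap for 3 of the 7 (Cyba, Ncf4 and Rac1), against 50.8% of all tested genes. At an unadjusted p under 0.05 there was 1, Ncf4 (log2 change 0.19, 95% interval 0.03 to 0.35, adjusted p = 0.13), and DESeq2 called 0 of those 6. The widest interval was that of Cybb (-2.08 to 1.90), which had 4 counts with vehicle and 5 at day 0. Hvcn1 had a log2 change of -0.04 (95% interval -0.25 to 0.17) and Rac2 one of 0.02 (-0.13 to 0.18).

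Levels of different genes were compared after division by exon length. With vehicle the order was Rac1 (147 CPM per kilobase), Rac2 (85.8), Cyba (65.7), Ncf1 (54.7), Ncf4 (40.4), Hvcn1 (13.1) and Cybb (0.034), and libraries of neighbours in this order did not overlap. With drugs the order of the means was unchanged, with Rac1 at 143, Rac2 at 69.5, Cyba at 68.5, Ncf1 at 53.0, Ncf4 at 36.0, Hvcn1 at 27.0 and Cybb at 0.388, but the libraries of Rac2 and Cyba overlapped. At day 0 the order was the same, with Rac1 at 140 and Cybb at 0.036, and no neighbours overlapped. As a ratio of neighbours, the widest step in every group lay between Hvcn1 and Cybb, and as a difference in CPM per kilobase between Rac1 and Rac2. Per kilobase, Cyba was 247 and 136 times as high as Cybb in the drug libraries, against 2029 and 1819 times with vehicle and 1962 and 1985 times at day 0. The vehicle and day 0 ratios rest on 2 or 3 Cybb reads a library.

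**Figure D3:**
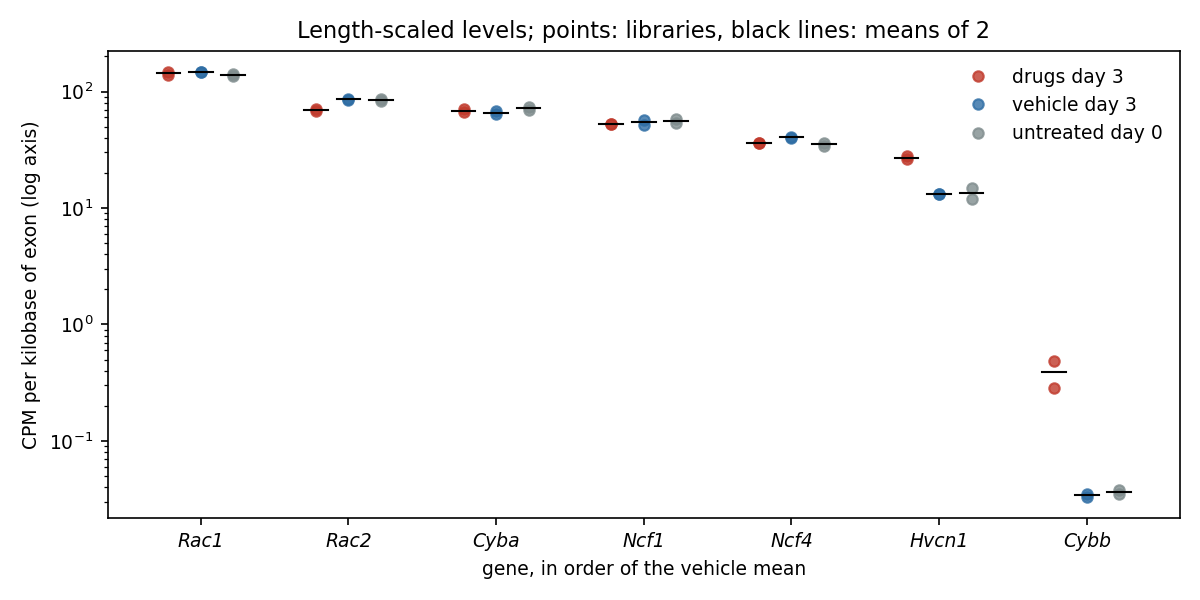
Level of the 7 genes in CPM per kilobase of exon (log axis), ordered by the vehicle mean, with points for libraries and lines for means of 2. Cybb lies far below the other 6 genes in all groups, including drug-treated cells (0.388 on average).

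The other genes of the oxidase and of its control were taken from 7 lists of 85 genes, of which 84 were found and 70 tested. With drugs against vehicle, 28 of the 70 were higher and 13 lower, where 18.1% and 13.8% of all tested genes were, with a median log2 change of 0.09 against 0.00 over all tested genes. In vehicle against untreated cells 5 were higher and 5 lower (3.75% and 3.99% of all tested genes), and in drugs against untreated cells 29 and 16 (22.7% and 21.2%). The genes called higher in both comparisons with the drugs include Fcgr4, which passed the filter on low counts only through the drug group. The lists were chosen with earlier results known, so these shares are a description. Other catalytic and accessory subunits were at or near 0: Nox3, Nox4, Duox2 and Noxa1 had 0 counts in every library, Nox1 had at most 2 and Duox1 at most 1. Of 5 tested subunits and assembly factors, 1 rose and 0 fell (18.1% and 13.8% of all tested genes). It was Rap1a, a small GTPase that copurifies with the flavocytochrome (log2 change 0.23 ± 0.0734, adjusted p = 0.0308). Nrros, which in mice limits the burst by degrading gp91phox, had 136.9 CPM with drugs and 136.4 CPM with vehicle and was not called.

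Of 12 tested factors that load Rac with GTP or hold it inactive, 4 rose and 2 fell (18.1% and 13.8% of all tested genes). The exchange factors Vav3 (325.5 ± 5.19 CPM with drugs, 214.0 ± 2.84 CPM with vehicle; SD, n = 2) and Vav1 (180.2 ± 3.98 against 136.8 ± 0.483 CPM) rose by 0.60 and 0.40 on the log2 scale (adjusted p = 9.75e-05 and 0.000516 in edgeR). Bcr, which inactivates Rac through its GAP domain, fell by 0.56 (adjusted p = 0.000774), and Dock5, an exchange factor, fell by 0.38 (adjusted p = 0.00215).

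Among kinases and lipid enzymes that prime the cytosolic subunits, 1 of 14 tested genes rose and 6 fell (18.1% and 13.8% of all tested genes). Prkcb, a protein kinase C that phosphorylates p47phox, rose by 0.24 ± 0.0797 (adjusted p = 0.0339 in edgeR). Prkca, another protein kinase C, fell by 0.67 (adjusted p = 1.11e-05) and averaged 65.8 ± 2.78 CPM with drugs against 104.6 ± 0.966 CPM with vehicle (SD, n = 2). Pla2g4a, the cytosolic phospholipase that releases arachidonate, fell by 0.62 (adjusted p = 1.94e-05). In vehicle against untreated cells, Prkcb was also higher (0.45, adjusted p = 0.0055 in edgeR) and Pla2g4a also lower (-0.43, adjusted p = 0.00181). Prkca was not called there (-0.02).

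Of 11 tested receptors that trigger or prime the burst, 9 rose and 0 fell (18.1% and 13.8% of all tested genes). The genes that rose include the cytokine receptor chains Csf2ra, Csf2rb and Csf2rb2. The median log2 change of this list was 0.63. Among the 9 genes that rose, Fcgr4 was low without the drugs, with 0.857 CPM with vehicle and 2.58 CPM with drugs. Fcgr4 passed the filter on low counts only through the drug group, so its p is not independent of that filter. Itgam, the CD11b chain of complement receptor 3, had 29.6 ± 2.27 CPM with drugs and 13.5 ± 2.43 CPM with vehicle (log2 change 1.13, adjusted p = 2.58e-05). Csf2rb, the shared chain of the GM-CSF receptor, had 227.1 ± 12.1 CPM with drugs and 147.0 ± 8.02 CPM with vehicle (0.63, adjusted p = 6.13e-05). The formyl peptide receptor gene Fpr1 had 0 counts in all libraries, and Fpr2 and the complement receptor gene C5ar1 had at most 1 and 4. Of the 7 tested ion carriers, 3 rose and 1 fell (18.1% and 13.8% of all tested genes). Trpm2, a calcium channel opened by ADP-ribose and peroxide, reached 85.0 ± 3.89 CPM with drugs against 12.2 ± 0.0322 CPM with vehicle (log2 change 2.80 ± 0.0928, adjusted p = 1.88e-10). Clcn3, a chloride-proton exchanger, rose by 0.39 (adjusted p = 0.000874), and Kcnn4, a potassium channel, fell by 0.71 (adjusted p = 3.08e-05).

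Genes that handle the products of the oxidase had 4 rises and 1 fall among 8 tested (18.1% and 13.8% of all tested genes). Prdx1, a peroxiredoxin, had 257.9 ± 18.2 CPM with drugs and 124.4 ± 10.8 CPM with vehicle (log2 change 1.05, adjusted p = 6.32e-06). Mpo, which turns peroxide into hypochlorous acid and is also among the progenitor markers above, rose by 0.54 (adjusted p = 0.00179). Prdx6, a peroxiredoxin, fell by 0.24 (adjusted p = 0.0225). Of 13 tested transcription factors tied to oxidase genes, 6 rose and 3 fell (18.1% and 13.8% of all tested genes). Irf8, an interferon regulatory factor of the monocyte lineage, had 30.5 ± 3.10 CPM with drugs and 6.30 ± 0.0774 CPM with vehicle (log2 change 2.28, adjusted p = 7.75e-08). The gene of the genome organiser SATB1, Satb1, was higher by 1.76 (adjusted p = 1.3e-08). Tal1, a blood stem cell and erythroid factor, fell by 0.71 (adjusted p = 3.17e-05). Hoxa9 fell by 0.55 (adjusted p = 6.44e-05), and whether its counts include reads of the fusion is not known from these files.

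**Figure D4:**
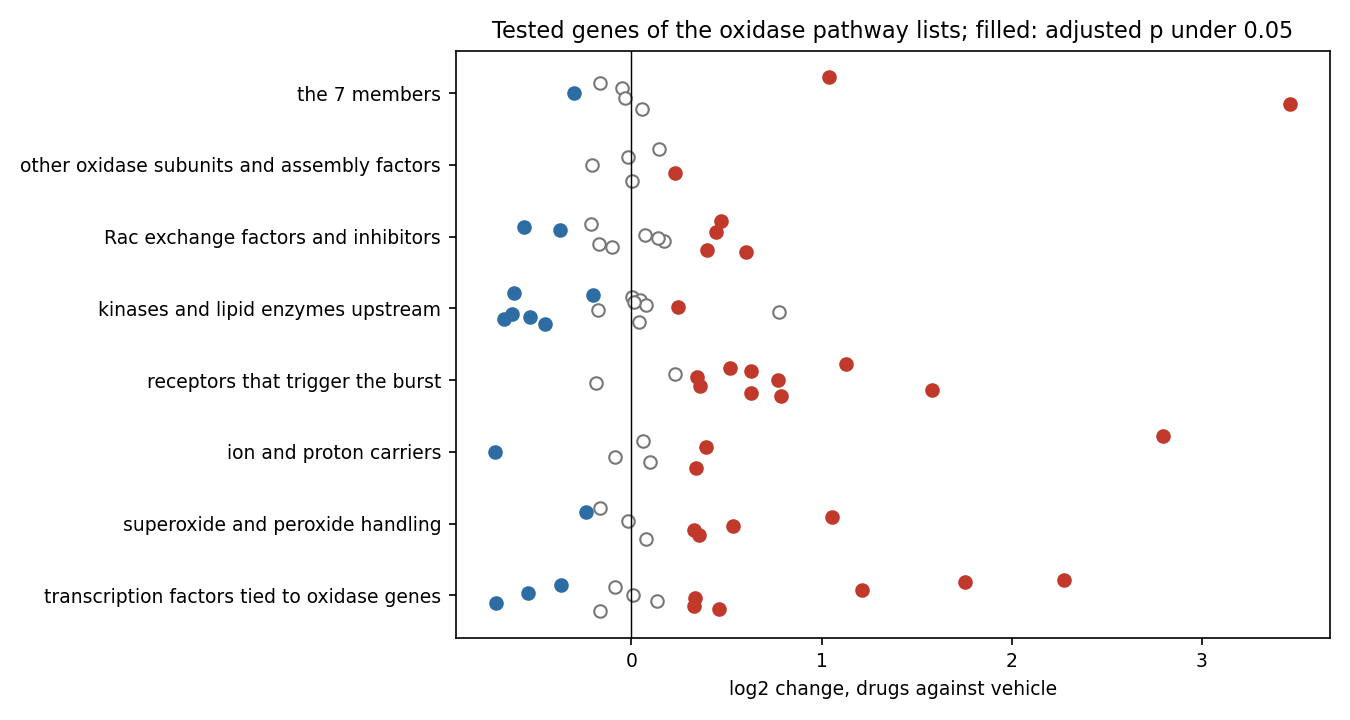
Log2 change with drugs against vehicle for the 7 genes and for the tested genes of 7 oxidase pathway lists, with filled points for adjusted p under 0.05 (red higher, blue lower). The receptor list has 9 filled points to the right of 0 and none to the left, and the kinases have 1 to the right and 6 to the left. The receptor points include Fcgr4, which passed the filter on low counts only through the drug group.

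Of the 14 nearest tested genes on either side of the 7, 5 were called with drugs against vehicle, where 31.9% of all tested genes were. Cybb lies 122007 bases from Xk (log2 change of drugs against vehicle -0.53, adjusted p = 0.0042 in edgeR) and 184946 bases from Dynlt3 (-0.04, not called). Hvcn1 lies between Ppp1cc (0.07) and Pptc7 (-0.12), neither of which was called. Rac2 lies between C1qtnf6 (-0.12) and Cyth4 (-0.06), again with no call. The neighbours of Ncf4 were Ift27 (-0.03, not called) and Csf2rb2, a receptor chain 19930 bases away that rose by 0.77 ± 0.106. Of the neighbours of Cyba, Zc3h18 changed by -0.23 (adjusted p = 0.0362) and Mvd, an enzyme of sterol synthesis 656 bases away, rose by 0.49 (adjusted p = 0.0128). Around Ncf1, Gtf2ird2 (0.10) and Gtf2i (-0.07) were not called. Around Rac1, Daglb changed by -0.35 (adjusted p = 0.0304) and 2810453I06Rik (-0.21) was not called. With drugs against untreated cells, Csf2rb2 was called higher (0.55), while Xk, Zc3h18, Mvd and Daglb were not called. Daglb was higher with vehicle than in untreated cells (0.43, adjusted p = 0.037 in edgeR), and its change with drugs against untreated cells was 0.08.

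Likeness of pattern was measured as the Euclidean distance between centred log2 CPM profiles over the 6 libraries. A small prior count was added before the log, which shrinks the changes of genes with few counts, Cybb and Tlr7 among them. The genes nearest to Cybb were Tlr7 (distance 0.52), 4930420K17Rik (0.562) and Trpm2 (0.596). Tlr7, like Cybb, was near 0 outside the drug group, with 1.21 CPM with drugs, 0.0813 CPM with vehicle and 0.0715 CPM at day 0. Tlr7 too passed the filter on low counts only through that group. Hvcn1 was nearest to 1110003E01Rik (0.128), Ppfibp1 (0.133) and Nlrp1a (0.135), whose log2 changes of drugs against vehicle were 1.04, 1.05 and 0.999. Rac2 was nearest to Spag5 (0.0341), Trip13 (0.0482) and Vdac3 (0.054), which had changes of -0.29, -0.28 and -0.32. Cyba was nearest to Pnpla8, Snx15 and Ythdc1, Ncf1 to Fech, Emd and Yipf1, Ncf4 to Men1, Cdk5rap2 and Fignl1, and Rac1 to Pip5k1c, Coro1c and Prpf6. None of these 12 genes was called with drugs against vehicle. The profiles share libraries and scaling, and all tested genes were searched, so likeness is a description only.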

How the data were processed

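RNA enriched for polyadenylated transcripts was sequenced from 6 cultures in 3 groups of 2. The authors deposited raw counts of reads per gene. Alignment used STAR 2.7.0f to mm10 and deepTools 3.0.2 was also named, per the submitters' processing notes. A featureCounts table is named in the labels. How strand and multiply mapped reads were treated, and which annotation was used, is not stated there. The deposited table has another column, exon length in base pairs (another unit), which was used to scale levels between genes. Genes were kept with filterByExpr (11283 of 23337), libraries were scaled by TMM, and all groups shared a single edgeR 4.0.16 model (R 4.3.3) with 3 residual degrees of freedom. Quasi-likelihood F tests were adjusted by Benjamini-Hochberg over all tested genes with a threshold of 0.05. The SE comes from the F statistic, and 95% intervals use its degrees of freedom. The fit was tested on simulated data. Alternatives were DESeq2 1.42.0, other scalings and filters, 2-group fits, a replicate block, and leaving out each library.

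The 7 genes and the lists were chosen with earlier results of these data known. Named were, per list, the 2 called genes with the smallest p in each direction, the nearest tested gene on either side of each of the 7, and the 3 genes with the nearest profile. Genes at or near 0, Nrros and Tlr7's levels were picked after their values were seen. Older symbols were matched through RefSeq synonyms, and 1 list gene, Cybc1, was not matched. One gene of the lists is not reported here by itself. Shared 50-base words were counted in GENCODE transcripts, on both strands.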

Additional observations from a re-analysis of the deposited data

How the results depend on the processing

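Among alternative values for single oxidase genes, 288 were counted as keeping their side of the threshold, 3 lost a call and 2 gained one. The 288 include the DESeq2 value of Cybb in vehicle against day 0, which had no adjusted p. No called gene changed direction. Rac2 lost its call without drug replicate 1 in both comparisons with the drugs, and with library totals against day 0. Library totals moved the median log2 change of all genes in vehicle against day 0 to 0.10, from -0.02 with TMM, and then called 2 of the 7 genes higher, Ncf4 (0.32, adjusted p = 0.0333; 0.21 relative to that median) and Rac1 (0.19, adjusted p = 0.0485; 0.09). Calls were then 1741 higher and 216 lower, against 423 and 450 with TMM, and in drugs against day 0 they were 3141 and 1321, against 2564 and 2394. Over all genes, DESeq2 called 2329 in drugs against vehicle (3601 in edgeR). In vehicle against day 0 (873 in edgeR) there were 1957 with library totals, 1664 with no filter, 469 with DESeq2, 527 with only the 2 groups and 483 with the replicate block. The block changed no call among the 7 genes. Deviations of same-numbered cultures had correlations of r = 0.0807 for drugs with vehicle, -0.199 for vehicle with day 0 and -0.0604 for drugs with day 0. With 2 cultures a group, these values cannot show whether same-numbered cultures shared a day or a preparation, which the labels do not say. Leaving out 1 library gave 1833 to 4191, 351 to 2012 and 2872 to 5142 calls in drugs against vehicle, vehicle against day 0 and drugs against day 0, and 2 to 3, 0 and 2 to 3 calls among the 7 genes. Counts moved by over 1.5 times without drug replicate 1 (1833 against vehicle, 2872 against day 0) or 2 (2056, 3279), and in vehicle against day 0 without drug replicate 1 (530) or 2 (535), vehicle replicate 1 (351) or day 0 replicate 1 (359) or 2 (2012). Where a group is left with 1 library, that library is assumed to vary like the others. Cybb rests on 4 vehicle and 5 day 0 reads, so the size of its rise is known only within its interval.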
